A study of Mus musculus with 6 samples.

Results

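The cells described here are the 430 of 35962 quality-passing cell barcodes that held many transcripts of Acta2 and Tagln and few transcripts that mark heart muscle, endothelium, epithelium or epicardium. Acta2 encodes smooth muscle alpha-actin and Tagln encodes transgelin, an actin-binding protein. Unique molecular identifiers (UMIs) each stand for 1 captured transcript. A barcode passed when 2500 genes or more were found in it and mitochondrial genes gave no more than 10% of its UMIs. It was counted among the 430 when it held at least 10 UMIs of Acta2 and at least 10 of Tagln, fewer than 5 of Tnnt2 and of Ttn (heart muscle), fewer than 2 of Pecam1 (endothelium), fewer than 3 of Epcam (epithelium) and fewer than 2 of Wt1 (epicardium). The working name of these barcodes is smooth muscle-like mural cells. Myh11 of mature smooth muscle and the pericyte markers Cspg4, Abcc9, Kcnj8 and Higd1b were low or at 0 in them. Cnn1, Rgs5, Pdgfrb and Mcam were higher than in the other passing cells, as described further on. Because the markers were mixed, these barcodes are called Acta2- and Tagln-high cells.

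The tissue was the microdissected cardiogenic region of C57BL/6 wild type mouse embryos at embryonic stage E10.5, which per the labels also held non-cardiac mesoderm, ectoderm and endoderm. Normal glycemic males had been mated with females pretreated either with vehicle, which remained normal glycemic (3 samples), or with STZ, which were hyperglycemic (3 samples). STZ is streptozotocin, a toxin of the insulin-producing beta cells. All 6 samples are deposited as 1 matrix with barcode suffixes 1 to 6, and the sources used here do not say which suffix is which sample. The 6 suffixes are therefore treated as 6 libraries of unknown group, vehicle and STZ are not compared, and no test is made. Whether embryos were pooled is not stated in the labels. Titles, library kit and matrix are those of single-cell RNA sequencing, although an assay of open chromatin is named in the descriptions.

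Smooth muscle cells contract through a filament system of smooth muscle actin, smooth muscle myosin heavy chain (Myh11), myosin light chains, tropomyosins, calponin and caldesmon. Mural cells are the cells that wrap vessels, namely vascular smooth muscle cells and, on small vessels, pericytes. In the embryonic heart region they arise from several sources, among them neural crest, second heart field mesoderm, the epicardium and splanchnic mesenchyme, and developing heart muscle itself expresses Acta2 and Tagln. Many contractile genes are activated by serum response factor (Srf) with its partner myocardin (Myocd) or the related factors Mrtfa and Mrtfb, which act at a DNA motif called the CArG box.

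The matrix held 53362 barcodes, 7533 to 10000 per library, and the 430 cells made up 1.20% of the passing barcodes (95% Clopper-Pearson interval 1.09 to 1.31). Libraries 1 to 6 gave 68, 87, 25, 79, 110 and 61 of them. As shares of the passing barcodes these were 1.06, 1.45, 0.510, 1.39, 1.54 and 1.05%, lowest in library 3 and highest in library 5. Depth was close to that of the other cells, with a median of 31530 UMIs and 6297 genes per cell against 32765 UMIs and 6203 genes over all passing barcodes. The barcode sequence of 32 of the 430 cells also occurred in another library, and none of these sequences belonged to an Acta2- and Tagln-high cell in both. In 1 cell of library 1 and 1 cell of library 5, hemoglobin transcripts made up 34.6% and 23.3% of UMIs, and the next highest cell had 0.0667%. All intervals given here cover counting error only.

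Levels are given as CPM, the summed UMIs of a gene per 1000000 summed UMIs of all genes in a group of barcodes. The 430 cells were set beside 35532 other passing barcodes and, more narrowly, beside 19936 passing barcodes that kept within the same limits for Tnnt2, Ttn, Pecam1, Epcam and Wt1 but did not reach the minimum of Acta2 or Tagln. The second set is called the within-limits cells. A gene is called higher or lower when the ratio of CPM, taken within each library, had a median over the 6 libraries of at least 2-fold and the gene reached 10 CPM in either group. Fold values are that median. Library values are also set beside those of a comparison group. The share of all genes whose library values do not overlap was not counted, so such cases are descriptions. These calls are descriptions of size without a test. A gene that reached 10 CPM in a single group entered the counts through that group, so counts of called genes in a list are set in part by this limit. Over all genes measured at that level, 332 of 9181 (3.62%) were called higher and 334 (3.64%) lower than in the other passing cells. Against the within-limits cells, 653 of 9025 (7.24%) were called higher and 179 (1.98%) lower. The 293 genes called higher in both comparisons were 88.3% of the first list and 44.9% of the second.

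Acta2 (chromosome 19, 34241090 to 34255590 on the minus strand of GRCm38, GENCODE M21) and Tagln (chromosome 9, 45929619 to 45936058, minus strand) chose the cells, so their levels are only a description. Acta2 was at 2223, 2214, 2846, 1711, 2217 and 2497 CPM in libraries 1 to 6. Tagln was at 2590.1, 2977, 2382, 2259, 2990.3 and 2637 CPM. Library 4 was lowest in both genes, and no library was below the pooled 658 and 242 CPM of the other passing cells. High Acta2 and Tagln were not particular to the 430 cells: 3860 passing barcodes held 10 UMIs of both, 3099 of these were over the limit of Tnnt2 or Ttn, and 331 more were over another limit. The Acta2- and Tagln-high cells were 11.1% of those 3860. In a cardiomyocyte gate of 3147 passing barcodes with at least 10 UMIs of Tnnt2 and of Ttn, Acta2 stood at 5054 CPM and Tagln at 1388 CPM, so Acta2 was higher in heart muscle cells and Tagln was higher in the cells described here. At the edge of the rule, 60 cells had the lower of both counts at 10 to 12 and 82 barcodes within all other limits had it at 7 to 9. Of the 430, 292 had at least 20 UMIs of both genes and 157 had at least 50.

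The name was checked against markers of smooth muscle and mural cells. Myh11, the smooth muscle myosin heavy chain, was found in 34 of 430 cells (7.91%) and reached 5.46 CPM (4.32 to 6.80). After each cell was thinned to 10000 UMIs, 17 of 422 cells (4.03%) kept a Myh11 UMI, against 0.452% in an epithelial gate (5 UMIs or more of Epcam and fewer than 5 of Tnnt2), a cell type in which the gene is not expected. Unthinned, that background share in the epithelial gate was 0.901%, at a median of 28748 UMIs per cell against 31530 in the Acta2- and Tagln-high cells. Myh11 thus stood above background in few cells, and it was below 10 CPM in 5 libraries and at 11.3 CPM in library 6. Myocd was at 30.0 CPM, close to the 37.3 CPM of the other passing cells, but 8.08-fold higher than the 3.70 CPM of the within-limits cells. Pericyte markers split. Pdgfrb, the receptor through which vessels recruit mural cells, was at 57.7 CPM and Mcam, an adhesion molecule of mural and endothelial cells, at 25.0 CPM, against 28.5 and 3.00 CPM in the within-limits cells. Cspg4 was at 4.01 CPM, Abcc9 and Kcnj8, the subunits of a mural potassium channel, at 1.73 and 0.622 CPM, and no UMI of Higd1b was found, which allows up to 0.207 CPM. The log2 ratios of Myh11, Cspg4, Abcc9 and Kcnj8 over the within-limits cells were 3.58, 1.68, 1.99 and 2.45. Over the other passing cells they were 2.68, 0.87, -1.41 and 1.19, all at levels too low for a call. Elastin (Eln), the main elastic protein of arterial walls, was at 2.28 CPM against 2.73 in the other passing cells. Markers of other lineages barred by the rule stayed low by construction. Markers the rule did not use are given below, and for the barred lineages these too are set in part by the rule.

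To describe the sequence upstream of contractile genes, the 250 bases before each RefSeq start (GRCm38.p6) were searched for CArG boxes. The box was taken as CCNNNNNNGG with all 6 inner bases A or T, and as a near box with at least 5 of 6. The pattern reads the same on both strands. Of 25 contractile genes listed, 22 had a RefSeq promoter and Tagln, Myh11 and Actg2 had none in the table. A box was present in 4 of the 22 (Myl9, Myl6, Cnn2 and Vcl, 18.2%) against 439 of 27025 genes overall (1.62%), and a box or near box in 6 of 22 (27.3%) against 9.78%. The list names genes long studied as contractile, so this share is a description of the list. The stretches that hold the boxes of Acta2, of Actc1 (cardiac alpha-actin, called higher than in the within-limits cells and lower than in the other passing cells) and of the contractile genes with a full box outside annotated exons follow, read on the strand of the gene, with box or near box in capitals.
Acta2, chr19:34255438-34255467, minus strand, 84 bases before the start: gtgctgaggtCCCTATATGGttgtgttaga
Acta2, chr19:34255388-34255417, minus strand, 34 bases before the start: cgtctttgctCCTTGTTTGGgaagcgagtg
Actc1, chr2:114053031-114053060, minus strand, 175 bases before the start: ctccctagctCCCTATATGGccattgctct
Actc1, chr2:114052994-114053023, minus strand, 138 bases before the start: ccctccccttCCTTACATGGtctgggagcc
Actc1, chr2:114052943-114052972, minus strand, 87 bases before the start: gcccttggctCCAAGAATGGcctcagcggt
Actc1, chr2:114052903-114052932, minus strand, 47 bases before the start: gctaaggcgaCCAAATAAGGcaaggtggca
Myl9, chr2:156775293-156775322, plus strand, 161 bases before the start: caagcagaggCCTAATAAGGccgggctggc
Myl9, chr2:156775355-156775384, plus strand, 99 bases before the start: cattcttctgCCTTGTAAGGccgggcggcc
Cnn2, chr10:79988534-79988563, plus strand, 56 bases before the start: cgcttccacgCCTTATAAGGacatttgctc
Vcl, chr14:20929161-20929190, plus strand, 227 bases before the start: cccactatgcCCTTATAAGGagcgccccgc
Acta2 and Actc1 both carried the near box CCCTATATGG, and Cnn2 and Vcl carried the full box CCTTATAAGG. The Acta2 stretches lie before the RefSeq start but inside a first exon of longer GENCODE M21 transcripts. Actc1 held 1 full box and 3 near boxes in its window. The longer upstream sequence of Myl9, the regulatory light chain of smooth muscle myosin and the listed gene with a full and a near box, is shown up to its first annotated exon.
Myl9, chr2:156775214-156775419, plus strand: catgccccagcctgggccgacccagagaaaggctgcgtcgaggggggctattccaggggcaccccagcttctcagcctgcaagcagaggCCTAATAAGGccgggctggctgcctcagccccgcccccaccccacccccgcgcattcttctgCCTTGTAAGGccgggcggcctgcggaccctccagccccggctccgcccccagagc
A match to these letters does not show that a factor binds there, and genes such as Cnn1 and Tpm2 that had no box in this window were also high in the cells.

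Contractile genes other than Acta2 and Tagln summed to 8310 CPM (8263 to 8357) in the Acta2- and Tagln-high cells, against 3597 CPM in the other passing cells and 1790 CPM in the within-limits cells. Per library the sum ran from 7616 to 8891 CPM, so every library of these cells was above both pooled comparison values. Of the 20 listed genes that reached 10 CPM, 14 were called higher and 0 lower than in the other passing cells, where 3.62% of all genes were called higher. Against the within-limits cells 19 of 20 were called higher, beside 7.24% of all genes. The count of 14 was 8 when the 174 of the 430 cells with 10 or more Actc1 UMIs were left out and the other passing cells were kept as they were, and 12 when barcodes with that many were left out of both groups. The median log2 ratio of the list was 1.48 and 2.03 in the comparisons, beside 0.04 and 0.08 over all genes.

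Within the actin filament group, Cnn1 (chromosome 9, 22099216 to 22109630, plus strand), the basic calponin that marks differentiating smooth muscle, was at 102, 86.6, 88.1, 60.8, 89.6 and 101 CPM in libraries 1 to 6, against 1.15 CPM in the within-limits cells and 27.5 in the other passing cells. The lowest library, library 4, was still above every library of both comparison groups. The cardiomyocyte gate was higher still, with Cnn1 at 209 CPM, Lmod1 at 45.9 CPM and Myl9 at 1348 CPM. After thinning, Cnn1 UMIs were in 78.6% of the cardiomyocyte gate and 36.5% of the Acta2- and Tagln-high cells (unthinned 96.0 and 60.2%, at medians of 44592 and 31530 UMIs). In contrast, Tpm2 (116 CPM), Cald1 (286 CPM), Csrp1 (197 CPM) and Actg2 (3.36 CPM) were lower in the cardiomyocyte gate than in the cells described here. Cnn2, a broadly expressed calponin, was at 442 CPM against 127. Tpm2, the beta-tropomyosin, was at 336, 355, 392, 348, 411 and 347 CPM and 5.41-fold higher than in the other passing cells. Tpm1, a tropomyosin shared with heart muscle, was at 2085 CPM, which was 7.07-fold over the within-limits cells and only 1.74-fold over the other passing cells, a group that includes cardiomyocytes. Caldesmon (Cald1) was at 987 CPM against 322 and 310.2, and leiomodin 1 (Lmod1), an actin filament nucleator of smooth muscle, at 22.4 against 7.62 and 1.24. Csrp1, a LIM protein of smooth muscle, was at 277 to 372 CPM across libraries and did not overlap the 72.1 to 103 CPM of the other passing cells.

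Of the myosin genes, Myl9 was at 604, 693, 714, 517, 739.8 and 651 CPM in libraries 1 to 6, 3.39-fold over the other passing cells and 24.9-fold over the within-limits cells. Myl6, the essential light chain used by smooth muscle and non-muscle myosin, was at 1802 CPM against 751. Mylk, the kinase that phosphorylates the regulatory light chain and so starts contraction, stayed at 6.15 CPM (4.94 to 7.56) and so was below the level at which calls were made. Ppp1r14a, an inhibitor of myosin phosphatase, was at 119 CPM against 30.9. The light chains were thus high in every library, while the heavy chain Myh11 and the kinase Mylk were near the floor.

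Actg2, the gamma smooth muscle actin of visceral muscle, was at 33.7, 18.0, 30.5, 7.11, 28.4 and 21.9 CPM in libraries 1 to 6 against 1.27 CPM in the other passing cells. Its UMIs were in 24.4% of the 430 cells, compared with 0.868% in the epithelial gate. The actin genes are close copies of each other, and whether reads were shared among them in the authors' counting was not tested. Desmin (Des), the muscle intermediate filament, was at 73.6 CPM, below the 106 CPM of the other passing cells and above the 34.0 CPM of the within-limits cells. The focal adhesion proteins vinculin (Vcl) and alpha-actinin 1 (Actn1) were 1.90-fold and 1.88-fold higher than in the other passing cells, under the 2-fold limit, and 2.26-fold and 2.19-fold higher than in the within-limits cells. Filamin A (Flna) was at 179 CPM against 63.0, and Pdlim7, a PDZ and LIM protein of actin filaments, at 317 against 114.

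**Figure D1:**
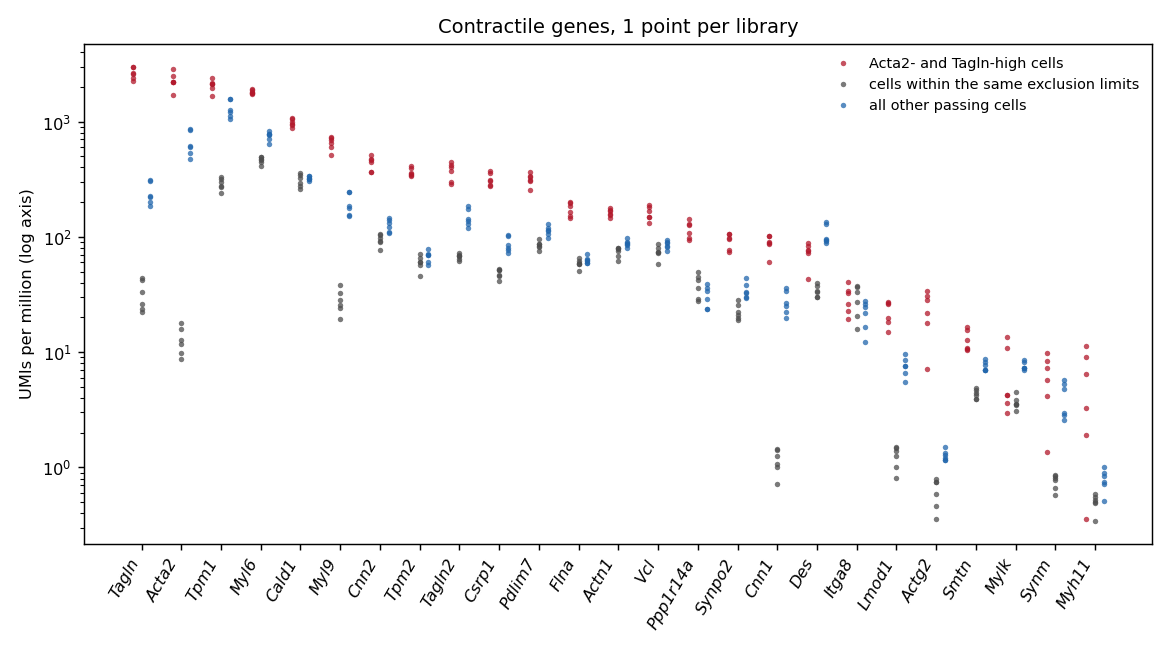
Levels of the 25 contractile genes in CPM (log axis), with 1 point per library for the Acta2- and Tagln-high cells, the cells within the same exclusion limits, and all other passing cells. Acta2 and Tagln chose the cells; Cnn1 lies at 60.8 to 102 CPM in the chosen cells and near 1 CPM in the cells within the limits, while Myh11 and Mylk stay near or below 10 CPM in all groups.

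Several contractile genes outside the rule were at higher levels in cells with more Acta2 and Tagln UMIs. Cells were divided by the lower of both UMI counts, beginning with the 82 barcodes just outside the rule (7 to 9 UMIs) and going on to 60 cells at 10 to 12, 78 at 13 to 19, 135 at 20 to 49 and 157 at 50 or more. Cnn1 was at 13.9, 23.3, 28.9, 46.0 and 162 CPM over these groups. Myl9 was at 261, 278, 343, 478 and 1028 CPM. Actg2 was at 1.19, 4.23, 3.26, 9.11 and 45.6 CPM, and Myh11 reached 12.1 CPM (9.48 to 15.3) only in the group with 50 or more, where the other groups had 0 to 1.64 CPM. Cnn1 and Myl9 were higher in each successive group. Cald1 (674, 613, 716, 868 and 1309 CPM) and Lmod1 (5.55, 4.23, 8.96, 11.2 and 42.2 CPM) were lower just inside than just outside the rule, within overlapping intervals, and highest in the last group. Myocd had no such order, at 34.1, 22.2, 10.6, 31.5 and 39.5 CPM. Actc1 went up, from 83.7 to 1266 CPM. Between the barcodes just outside and just inside the threshold, Myl9 was close, at 261 and 278 CPM (intervals 241 to 282 and 254 to 302 CPM). Some other genes were further apart there. The intervals cover counting error of summed UMIs and not the spread among cells or libraries. Whether a gene differs there was not tested. Actc1 was at 83.7 CPM (72.8 to 95.8) just outside and 150 CPM (133 to 169) just inside. Tbx20 (88.8 and 151 CPM), Col1a1 (187 and 259 CPM) and Foxd1 (88.4 and 121 CPM) were also higher just inside. Tnni1 was lower just inside (209.8 and 146 CPM).

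Some genes outside the contractile list also went up over these groups. Pdgfrb was at 36.9, 44.4, 46.4, 47.9 and 73.8 CPM, higher in each successive group. From just outside the rule to the highest group, Col3a1 went from 345 to 691 CPM, Tbx20 from 88.8 to 243 CPM and Foxd1 from 88.4 to 182 CPM. Rgs5 and Hand1 differed less. Rgs5, a regulator of G protein signalling known from pericytes, was at 222, 226, 199.9, 230.2 and 292 CPM, already high just outside the rule. Hand1 was at 151 CPM just outside and at 197 CPM in the highest group. Tnni1, the slow skeletal troponin I that is also the embryonic heart form, went the other way, from 209.8 to 48.4 CPM, and Isl1 was at 99.1, 117, 105.03, 102 and 77.1 CPM. Median depth was 30556.5 UMIs just outside, 28659 to 29579 in the middle groups and 35071 in the highest group. The groups were cut by raw counts of the genes that chose the cells, so the gradient is a description, and the part of depth in it was not tested.

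**Figure D2:**
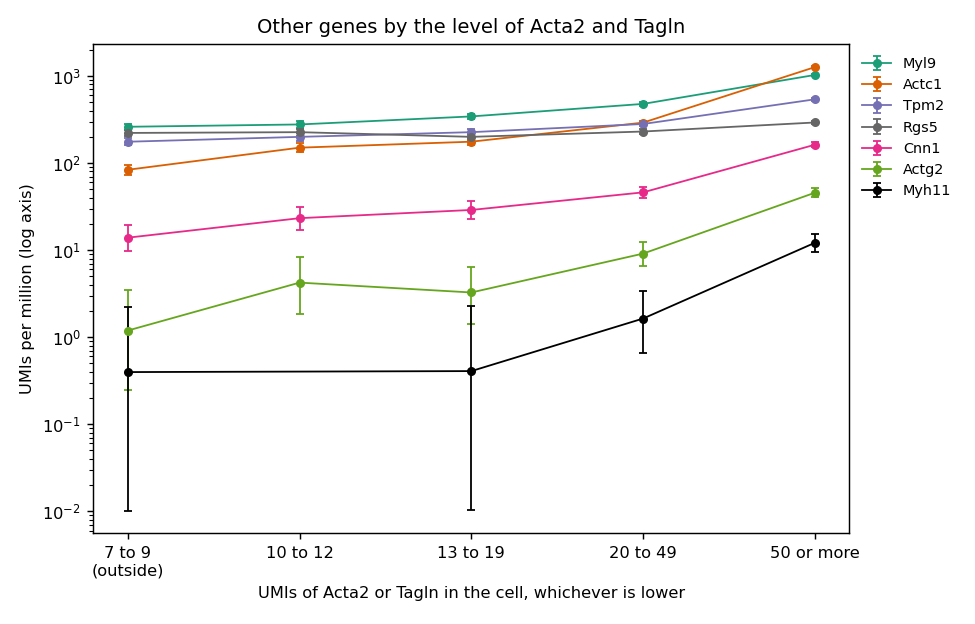
Levels of 7 genes in CPM (log axis) in 5 groups of cells ordered by the lower of the Acta2 and Tagln UMI counts; bars are 95% Poisson intervals of the summed counts, and a level of 0 is not drawn (Myh11 at 10 to 12). Cnn1, Actg2, Myl9, Tpm2 and Actc1 are highest in cells with 50 or more UMIs, whereas Rgs5 stays between 199.9 and 292 CPM.

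Among 20 transcriptional regulators of smooth muscle, 17 reached 10 CPM, and 1 was called higher and 2 lower than in the other passing cells, beside 3.62% and 3.64% of all genes. Gata6, a zinc finger factor of outflow tract and vessel muscle, was at 170.2, 136, 158, 130.5, 80.9 and 83.7 CPM in libraries 1 to 6 against 60.1 CPM, where libraries ran from 53.6 to 67.5 CPM. Klf4, which represses contractile genes, was at 6.42 CPM against 13.7, and Tcf21, a factor of cardiac fibroblast and epicardial lineages, at 15.3 against 35.5. Against the within-limits cells, 6 of 17 were called higher, beside 7.24% of all genes (Myocd, Mrtfb, Gata4, Gata6, Hey1 and Mef2c), and 2 lower, beside 1.98% (Tbx3 and Tcf21). Srf itself was at 17.3 CPM against 12.5 and 11.0, Mrtfa at 44.1 against 34.0 and 31.7, and Mrtfb at 67.2 against 37.9 and 31.3. Myocd UMIs were in 134 of 430 cells (31.2%), compared with 96.9% of the cardiomyocyte gate and 3.10% of the epithelial gate.

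The list of 16 mural and pericyte genes had 6 at 10 CPM. Rgs5, Pdgfrb and Mcam were called higher in both comparisons, and Tbx18, a T-box factor of pericytes and epicardium, against the within-limits cells alone. These were 3 and 4 of the 6, beside 3.62% and 7.24% of all genes, and none was called lower. Rgs5 (chromosome 1, 169655501 to 169695813, plus strand) was at 329, 277, 174, 183, 218 and 302 CPM in libraries 1 to 6, highest in library 1 and lowest in library 3, against 34.9 CPM in the other passing cells. It was 6.83-fold higher, and all libraries were above the 29.3 to 44.1 CPM of the other passing cells. Pdgfrb was at 64.6, 45.6, 58.8, 53.0, 63.2 and 61.4 CPM against 18.95, with no overlap. Notch3, the receptor that maintains arterial smooth muscle, was at 45.8 CPM against 33.0 and was not called. Ebf1 was at 145 CPM against 124 and ran from 57.3 to 228 CPM across libraries, lowest in library 1 and highest in library 3. Foxs1, a forkhead gene of pericytes, was at 2.14 CPM against 0.116.

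Of 16 collagen genes, 14 reached 10 CPM, 9 were called higher (3.62% of all genes) and 0 lower than in the other passing cells, and 11 were called higher than in the within-limits cells (7.24% of all genes). The list summed to 1766 CPM against 660.0 and 520.1 CPM. Col1a1, a chain of type I collagen, was at 212, 283, 224, 525, 292 and 232 CPM in libraries 1 to 6, highest in library 4, against 29.1 CPM in the other passing cells, 9.07-fold higher. Col3a1, which forms type III collagen of vessel walls, was at 427, 526, 461, 503, 583 and 561 CPM against 92.7. Col1a2 was 3.08-fold, Col12a1 4.47-fold, Col5a1 2.80-fold, Col5a2 2.66-fold and Col6a1 3.98-fold higher. The basement membrane chains Col4a1 and Col4a2 were at 183 and 94.1 CPM, called higher only beside the within-limits cells (58.2 and 30.5 CPM). Col2a1, the cartilage collagen, was at 45.1 CPM against 56.9.

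Of 25 elastic fibre and other matrix genes, 19 reached 10 CPM, with 6 called higher (Fbn1, Fbln2, Efemp2, Loxl1, Tnc and Postn) and 1 lower (Emilin2) than in the other passing cells, beside 3.62% and 3.64% of all genes. Fibrillin 1 (Fbn1), the microfibril scaffold of elastic fibres, was at 95.9 CPM against 40.0, and Efemp2 (fibulin 4), needed for elastic fibre assembly, at 70.2 against 28.6. Fibrillin 2 (Fbn2), the embryonic form, was at 359.7 CPM against 209 and was not called. Loxl1, which crosslinks elastin, was at 24.7 CPM against 8.75, whereas Lox was at 1.38 CPM and Eln at 2.28 CPM. Postn, a matrix protein of cushion mesenchyme, was at 43.7 CPM against 6.25, and 17 cells with 10 or more Postn UMIs made up 3.95% of all. Tenascin C (Tnc) ranged from 24.8 to 172 CPM across libraries, highest in library 4. The microfibril gene Mfap2 (219 against 135 CPM) was not called in this comparison, and elastin was below 10 CPM in both groups. In the comparison with the within-limits cells, 10 of 18 were called higher, with Loxl2, Ltbp1, Fn1 and Thbs1 added to the 6 above, and 0 lower, where 7.24% and 1.98% of all genes were.

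Signalling genes were described from lists of TGF-beta and BMP, Notch, PDGF, and endothelin and contractile agonist genes. Of 28 TGF-beta and BMP genes, 21 reached 10 CPM, with 4 called higher and 1 lower than in the other passing cells, where 3.62% and 3.64% of all genes were. Beside the within-limits cells 8 of 18 were called higher (7.24% of all genes) and 0 lower, adding Tgfb1, Smad7, Bmp4 and Ltbp1. Tgfb2, the ligand that drives cushion and vessel wall development, was at 288, 226, 219, 179, 188 and 239 CPM in libraries 1 to 6 against 68.5 CPM, 3.13-fold higher and without overlap. The TGF-beta induced matrix protein Tgfbi was at 101 CPM against 22.7, the inhibitory Smad gene Smad6 at 105.2 against 40.9, and the ligand Bmp2 at 30.7 against 11.9. Bmp7 was lower, at 8.29 CPM against 17.1. The receptors Tgfbr1 (92.1 against 83.3 CPM), Tgfbr2 (8.63 against 10.9) and Bmpr1a (125 against 112) were not called. Smad6, Smad7 and Tgfbi were each highest in library 1.

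Of 13 Notch genes, 6 reached 10 CPM. None of the 6 was called higher or lower than in the other passing cells, and Notch1 and Hey1 were called higher than in the within-limits cells, beside 7.24% of all genes. Hey1, a Notch target, was at 42.3 CPM against 20.3 and 16.0. Heyl, a Notch target of smooth muscle, was at 8.50 CPM against 2.46, below the 10 CPM limit. Of 6 PDGF genes, 5 reached 10 CPM, with the receptor Pdgfrb called higher and the ligand Pdgfa lower (20.2 against 60.7 CPM), beside 3.62% and 3.64% of all genes. Beside the within-limits cells Pdgfrb alone (1 of 5) was called higher and 0 lower, where 7.24% and 1.98% of all genes were. Pdgfa, at 14.8 CPM there, was not called. Pdgfra was at 52.6 against 41.9 CPM. Among 20 endothelin, agonist and contraction pathway genes, the nitric oxide receptor subunit Gucy1b1 (32.5 against 13.02 CPM) and the cGMP-dependent kinase Prkg1 (752 against 268 CPM), which relaxes smooth muscle, were called higher, and the endothelin receptor Ednrb (4.01 against 15.8 CPM) lower. Of 13 at 10 CPM these were 2 and 1, beside 3.62% and 3.64% of all genes. Set beside the within-limits cells, 5 of 12 were called higher (Edn1, Ece1, Gucy1a1, Gucy1b1 and Prkg1) and 0 lower, where 7.24% and 1.98% of all genes were. The other endothelin receptor, Ednra, was at 35.4 CPM against 27.6. Prkg1 ran from 690.4 to 855 CPM in the 6 libraries, above all libraries of the other passing cells (242 to 307 CPM).

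By the rule for naming genes, the 15 genes with the highest ratio among those at 50 CPM or more and at least 2-fold higher in all 6 libraries were, in order, Col1a1, Plac8, Car3, Rgs5, Hand1, Foxd1, Lmo1, Col3a1, Tpm2, Glipr2, Lgals1, Anxa3, Cd248, Rerg and Sat1, out of 83 genes that met it. Plac8, a small cysteine-rich protein, was at 157, 93.8, 136, 169, 124 and 145 CPM in libraries 1 to 6 against 17.9 CPM, and was higher in every library. Car3, a carbonic anhydrase, was at 65.5, 50.6, 54.4, 61.2, 75.9 and 55.1 CPM against 8.60 CPM and 2.68 CPM in the within-limits cells, 23.1-fold higher than the latter. Hand1 (chromosome 11, 57828705 to 57832818, minus strand), a helix-loop-helix factor of heart and lateral mesoderm, was at 260.3, 208, 166, 134, 146 and 168 CPM against 27.3. Foxd1 (chromosome 13, 98354242 to 98359305, plus strand), a forkhead factor of stromal progenitors, was at 19.1, 124, 164, 141, 237 and 130.3 CPM against a pooled 20.9, with library 1 far below the other 5. By the rule it was still at least 2-fold over the other passing cells of library 1, so those cells too were below the pooled level.

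Lgals1 (galectin 1), a lectin of mesenchymal and muscle cells, was at 1045 to 1277 CPM in the 6 libraries and 5.00-fold higher. The annexin Anxa3 was at 171 CPM against 33.2 and 13.6, and Cd248 (endosialin), a surface protein of perivascular and stromal cells, at 54.1 against 10.1 and 12.8. Lmo1, a LIM-only transcriptional cofactor, was at 64.2 CPM against 10.51, Glipr2 at 136 against 26.8, the small GTPase gene Rerg at 59.5 against 12.8, and the polyamine acetyltransferase Sat1 at 104.9 against 24.3. All 15 were also called higher beside the within-limits cells, with library 1 below 2-fold for Foxd1 and 1 library below 2-fold for Rerg. So were 88.3% of all genes called higher than in the other passing cells, a group that includes the within-limits cells.

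**Figure D3:**
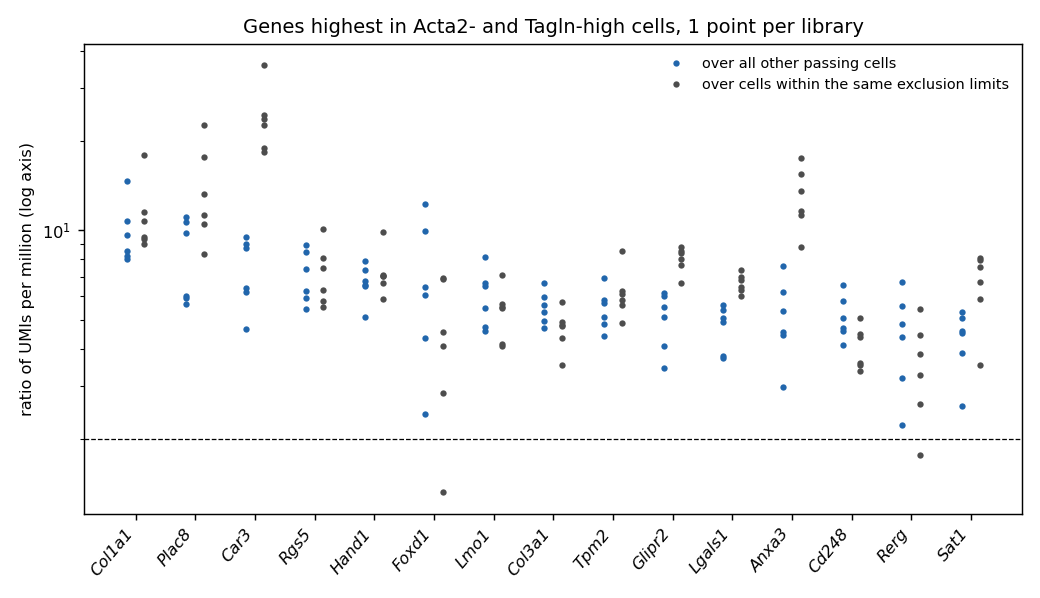
Ratio of CPM (log axis) for the 15 genes with the highest ratio, with 1 point per library, over all other passing cells and over cells within the same exclusion limits; the dashed line marks 2-fold. Every blue point is above the line, because the rule asked for it; Car3, Plac8 and Anxa3 have higher ratios over the cells within the limits, and Foxd1 in library 1 falls under the line there.

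The 8 genes with the lowest ratio by the matching rule were Hbb-bh1, Hba-x, Hbb-y, Hba-a1, Nppa, Myl2, Hba-a2 and Cox6a2, out of 35 that met it. Nppa (atrial natriuretic peptide) was at 0.553 CPM against 93.4, Myl2 (ventricular light chain) at 1.52 against 226, and Cox6a2 (the muscle form of a cytochrome oxidase subunit) at 0.345 against 58.1. All 3 are heart muscle genes, and the rule bars cells with Tnnt2 or Ttn; beside the within-limits cells, at 0.628, 1.92 and 0.362 CPM, they were not called. Embryonic hemoglobin genes had medians far below those of the other cells, with Hbb-y at 3944, 32.6, 63.1, 38.8, 3645 and 46.7 CPM in libraries 1 to 6. Libraries 1 and 5 stood apart, and each held 1 of the 2 cells rich in hemoglobin. When barcodes with over 10% hemoglobin UMIs were left out of both groups, Hbb-y was at 44.5 CPM against 55.8, a log2 ratio of -0.26, and none of the 5 hemoglobin genes named here stayed at 2-fold.

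Heart muscle and other cell types were described by marker lists. Of 18 cardiomyocyte genes outside the rule, 17 were called lower than in the other passing cells, beside 3.64% of all genes. The rule bars cells rich in Tnnt2 or Ttn and the other passing cells keep them, so this count is set in part by the rule. However, 4 of the 6 that reached 10 CPM beside the within-limits cells were called higher there, beside 7.24%, namely Actc1, Acta1, Myl4 and Tnni1. The summed level of the list was 900.0 CPM against 115.2 CPM in the within-limits cells and 6098 CPM in the other passing cells, and Actc1 made up 647 CPM of it. Myl7, the atrial light chain and one of the most abundant transcripts of embryonic heart muscle, was at 19.8 CPM against 16.5 in the within-limits cells and 11853 in the cardiomyocyte gate. Myh6 and Myh7, the cardiac myosin heavy chains, were at 1.45 and 2.49 CPM.

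Endothelial genes summed to 34.2 CPM against 48.2 CPM in the within-limits cells, with Cdh5 at 0.276 CPM, Tie1 at 0.0691 CPM and Cldn5 at 0.0691 CPM. Of 7 genes outside the rule, 6 reached 10 CPM and all 6 were called lower than in the other passing cells, beside 3.64% of all genes. Only 1 reached it beside the within-limits cells, and it was not called. Epicardial genes outside the rule summed to 79.2 CPM with a range of 34.6 to 173 CPM across libraries, against 159.6 CPM in the other passing and 62.9 CPM in the within-limits cells. Of the 6, 3 were called lower than in the other passing cells (Upk3b, Upk1b and Tcf21), beside 3.64% of all genes. Upk3b, Tbx18 and Krt19 (3 of 5) were called higher and Tcf21 lower beside the within-limits cells, where 7.24% and 1.98% of all genes were. Upk3b, a mesothelial surface protein, was at 11.8, 8.04, 42.4, 53.3, 1.40 and 0.420 CPM in libraries 1 to 6, so that libraries 3 and 4 stood apart from libraries 5 and 6. Defining epithelial genes were low, with Cdh1 at 0.207 CPM and Cldn6 at 0.0691 CPM, yet the keratins Krt8 and Krt18, filaments of simple epithelia, were at 143 and 211 CPM against 16.1 and 35.6 CPM in the within-limits cells. Beside the other passing cells, at 96.2 and 161 CPM, neither was called. Macrophage genes summed to 0.829 CPM with Ptprc, Tyrobp and C1qb at 0. Erythroid genes summed to 3397 CPM, from 69.3 to 8804 CPM across libraries, with the 2 hemoglobin-rich cells in the libraries that were highest. Tubb3, a neuronal beta-tubulin, was called higher in both comparisons, at 155, 83.5, 66.4, 56.5, 70.2 and 82.0 CPM in libraries 1 to 6 against 34.4 and 29.7 CPM. Of 4 glial crest genes none reached 10 CPM, and they summed to 7.67 CPM against 17.8 in the other passing cells. The part of any of these cell types in the values was not tested.

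Of 8 cushion mesenchyme genes, 4 were called higher in both comparisons (Postn, Sox9, Tbx20 and Papss2), beside 3.62% and 7.24% of all genes. Msx1 was called lower than in the other passing cells, and Msx1 and Scx lower than in the within-limits cells, beside 3.64% and 1.98% of all genes. Tbx20, a T-box factor of heart and cushion, was at 274, 185, 165, 170.3, 136 and 201 CPM in libraries 1 to 6 against 68.8 and 15.2, and Sox9, a factor of valve and cartilage progenitors, at 108 CPM against 44.1 and 44.4. Papss2 reached 10.1 CPM against 3.18, whereas Msx1 was lower, at 19.2 CPM against 36.5, and Twist1 was at 281 CPM against 253 in the within-limits cells. Among 8 neural crest mesenchyme genes, Prrx2 was higher (405 against 164 CPM) and Tfap2b and Dlx5 lower (5.11 against 17.6 and 13.5 against 22.8 CPM). These were 1 and 2 of 8, beside 3.62% and 3.64% of all genes. Beside the within-limits cells, Tfap2b, Dlx1, Dlx2 and Dlx5 were called lower, 4 of 8 beside 1.98% of all genes, and none higher. The migratory crest factors Sox10 and Foxd3 were at 0.414 and 0 CPM.

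Of 14 Hox genes, 6 reached 10 CPM beside the other passing cells. Of these Hoxa5 alone was called, as lower (4.21 against 10.8 CPM), beside 3.64% of all genes called lower. Beside the within-limits cells 3 of 8 were called lower (Hoxa4, Hoxa5 and Hoxd4), against 1.98% of all genes. In the 430 cells Hoxa3 and Hoxb3 were at 13.7 and 23.6 CPM against 10.9 and 23.2 in the other passing cells. In the second heart field list, Isl1 was at 94.4 CPM against 65.2 and Tbx1 at 58.6 against 27.3, neither called, and Fgf8, Tbx5 and Wnt2 were called lower, 3 of 8 beside 3.64% of all genes. Beside the within-limits cells 1 of 7 (Osr1) was called lower, where 1.98% of all genes were, and none was called higher in either comparison. Foxf1, a forkhead factor of gut and lung mesenchyme, was at 66.4 CPM, the level of the within-limits cells (65.2), and Barx1, which marks stomach and arch mesenchyme, was lower (8.22 against 66.3 CPM). The 6 paraxial genes summed to 27.1 CPM against 57.6 in the other passing and 56.3 in the within-limits cells, and 2 of 3 at 10 CPM were called lower in each comparison (Pax1 and Pax9, then Pax3 and Tcf15), beside 3.64% and 1.98% of all genes. Meox1, a homeobox factor of somites, gave most of that sum, at 18.2 CPM against 17.3 and 25.7, and was not called. The myogenic factors Myf5 and Myog were at 0.

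Of 17 cell cycle genes listed, none was called higher and 1 (Cdkn1a) lower than in the other passing cells, near the 3.64% of all genes called lower. Cdkn1c alone, 1 of 16, was called higher beside the within-limits cells, near the 7.24% of all genes, and none lower. Mki67 was at 111 CPM against 148, Top2a at 323 against 362 and Cdk1 at 226 against 210.3. The imprinted cell cycle inhibitor Cdkn1c was at 2058, 1348, 1157, 858, 1238 and 1422 CPM in libraries 1 to 6, and 4.24-fold higher than the 313 CPM of the within-limits cells but 1.35-fold over the 969 CPM of all other cells. The growth factor gene Igf2 and its imprinted neighbour H19, named after their values were seen, were at 842 and 1039 CPM against 223 and 299 in the within-limits cells. Cdkn1c was highest in library 1 and lowest in library 4, while Mki67, Top2a and Cdk1 were within 2-fold of the other passing cells.

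The 430 cells were not uniform. A gate of at least 3 UMIs of a gene was used to count cells with clear expression, and the gates for Foxd1, Hand1, Rgs5, Plac8 and Actc1 (10 UMIs) were chosen after their values were seen. Rgs5 passed in 225 cells (52.3%), Hand2 in 211, Hand1 in 188, Tbx20 in 186, Sox9 in 176, Isl1 in 145, Pdgfrb in 136, Foxd1 in 127, Cnn1 in 125 and Foxf1 in 118. As a background, 6.21% of the epithelial gate passed for Rgs5, 3.80% for Hand2, 2.82% for Hand1, 2.29% for Foxf1, 1.11% for Foxd1, 0.999% for Tbx20, 0.934% for Pdgfrb and 0.0983% for Cnn1, at the median depths given above. Isl1 passed in 50.6% and Sox9 in 11.99% of the epithelial gate, so that the epithelial gate is no background for these genes. The within-limits cells were closer for several genes, with Hand2 passing in 28.2% (49.1% of the 430) and Foxf1 in 20.9% (27.4% of the 430). Shares there were 20.4% for Sox9, 19.9% for Isl1, 13.1% for Pdgfrb, 12.4% for Rgs5 and 11.7% for Foxd1. Hand1 passed in 8.29%, Tbx20 in 3.66% and Cnn1 in 0.196% of them. Of the Foxd1, Hand1, Tbx20 and Isl1 gates, 57 cells passed none, 183 passed 1, 109 passed 2, 79 passed 3 and 2 passed all 4. Foxd1 alone accounted for 94 cells, Hand1 alone for 36, Tbx20 alone for 34 and Isl1 alone for 19.

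Gate shares were not the same in all libraries. Cells in the Foxd1 gate made up 5.88, 25.3, 36.0, 26.6, 46.4 and 32.8% of the cells of libraries 1 to 6, and those in the Hand1 gate 64.7, 50.6, 32.0, 43.0, 30.0 and 41.0%. The Rgs5 gate held 80.9, 58.6, 36.0, 34.2, 40.9 and 62.3%, so library 1 was highest in Rgs5 and Hand1 and lowest in Foxd1. The Cnn1 gate was steadier, at 29.4, 25.3, 28.0, 24.1, 32.7 and 34.4%. Library 3 had 25 cells, so that its shares are the least precise. Because the libraries could not be tied to vehicle or STZ, these differences are given as values of libraries and nothing more.

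**Figure D4:**
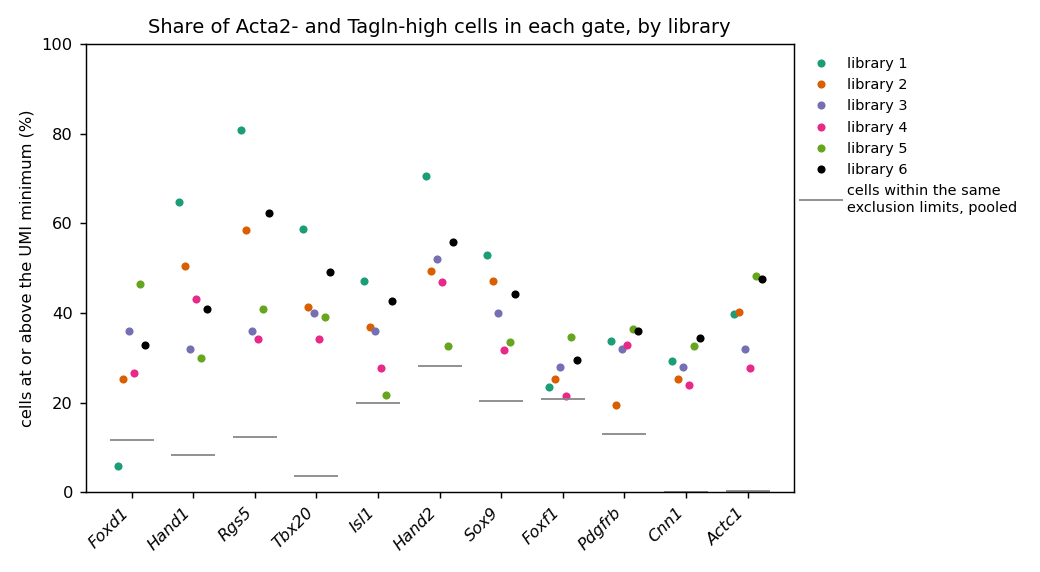
Share of the Acta2- and Tagln-high cells at or above the UMI minimum of 11 genes (3 UMIs, and 10 for Actc1), with 1 point per library; grey lines are the pooled share among cells within the same exclusion limits. Library 1 has the highest share for Hand1 (64.7%) and Rgs5 (80.9%). It has the lowest share for Foxd1 (5.88%), where it lies under the grey line of all libraries pooled.

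In the pooled cells, the Foxd1 and Hand1 gates overlapped little. Of 127 cells in the Foxd1 gate and 188 in the Hand1 gate, 7 were in both, which was 5.51% of the first and 3.72% of the second. Library 1 stood apart, with 3 of its 4 Foxd1-gate cells also in the Hand1 gate (75%), against 0 to 11.1% in the other libraries. Among the within-limits cells, 37 were in both, 1.59% of 2331 and 2.24% of 1653, so overlap was little in those cells as well. The 7 cells in both gates had a median of 54481 UMIs, against 27943.5 in 120 cells with Foxd1 only, 33089 in 181 with Hand1 only and 32888 in 122 with neither. Cells with Foxd1 only were most numerous in library 5, with 1, 20, 8, 21, 51 and 19 cells in libraries 1 to 6. Cells with Hand1 only numbered 41, 42, 7, 34, 33 and 24. Of the Hand1 gate, 165 cells (87.8%) also passed for Rgs5 and 113 (60.1%) for Isl1, while of the Foxd1 gate 9 (7.09%) passed for Rgs5 and 5 (3.94%) for Isl1.

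Genes that separated these groups were taken by a rule added after the values were seen, as the 10 with the highest pooled CPM ratio in each direction at 50 CPM or more. At 10 CPM or more, 420 of 9225 genes (4.55%) were at least 2-fold higher in the Foxd1-only cells and 336 (3.64%) in the Hand1-only cells. The Foxd1-only side was led by Il1rapl1, Pappa, Tll1, Tbx18, Ano4, Ntrk3, Itga4, Dach2, Ryr3 and Chrm3. Tbx18 was at 51.0 CPM against 1.47, the anoctamin gene Ano4 at 222 against 8.36, and the integrin alpha-4 gene Itga4 at 148 against 7.37. Each was higher on the Foxd1 side in all of libraries 2 to 6, where that side had at least 8 cells. The genes were chosen by their pooled ratio in these same libraries, so this agreement is set in part by the choice.

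The Hand1-only side was led by Dkk1, Gata4, Ctnna3, Rgs5, Hand2, Gata3, Isl1, Pdlim3, Zfpm1 and Msx2. Rgs5 was at 448 CPM in the Hand1-only cells against 11.4 in the Foxd1-only cells, so this pericyte-associated gene was higher on the Hand1 side. The Wnt inhibitor Dkk1 was at 201 CPM against 1.06, Hand2 at 179.9 against 4.52, Isl1 at 175 against 4.78, and Gata4, a cardiac zinc finger factor, at 64.7 against 1.33. In each of libraries 2 to 6 all 10 leading genes were lower on the Foxd1 side, except Gata4 in library 3, where no UMI of it was found on either side. These genes too were chosen by their pooled ratio in the same libraries, which sets this agreement in part. Krt8 followed the same side, at 243 CPM against 11.7, and so did Gata6, at 179 against 18.1.

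Several other mural and mesenchymal genes, named after their values were seen, were higher on the Foxd1 side. Ebf1 was at 365 CPM in the Foxd1-only cells against 32.4 in the Hand1-only cells, vitronectin (Vtn), a pericyte matrix gene, at 34.5 against 0.164, Cd248 at 115 against 32.1 and Mcam at 41.7 against 14.3. The retinoic acid synthesis gene Aldh1a2 was at 36.4 against 0.819 CPM and Hoxb3 at 46.2 against 12.6. Pdgfrb (75.5 and 61.8 CPM), Notch3 (56.1 and 43.1), Myocd (42.8 and 35.6) and Foxf1 (88.2 and 73.2) were similar on both sides.

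Contractile genes were present on both sides. Of the 23 contractile genes outside the rule, 3 were at least 2-fold higher in the Foxd1-only cells (Mylk, Des and Synm, beside 4.55% of all genes) and 1 in the Hand1-only cells (Synpo2, beside 3.64%). A value above 0 for the log2 ratio was found in 19 of 23, with a median of 0.50. Over all genes the median was 0.02, so about as many genes lay above 0.02 as below it. Cnn1 was at 123 CPM in the Foxd1-only and 77.5 CPM in the Hand1-only cells, and Myl9 at 1056 and 576. Among libraries 2 to 6, Cnn1 was higher on the Foxd1 side in 4 and Myl9 in 5 of 5. Acta2 (2835 and 2302 CPM) and Tagln (3652 and 2485 CPM) chose the cells, so their levels are only a description. Synpo2, an actin-bundling protein of the Z-disc and of smooth muscle, was at 162 CPM in the Hand1-only cells and 18.9 in the Foxd1-only cells. Mki67 (111 and 108 CPM) and Top2a (319 and 307 CPM) were close on both sides.

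**Figure D5:**
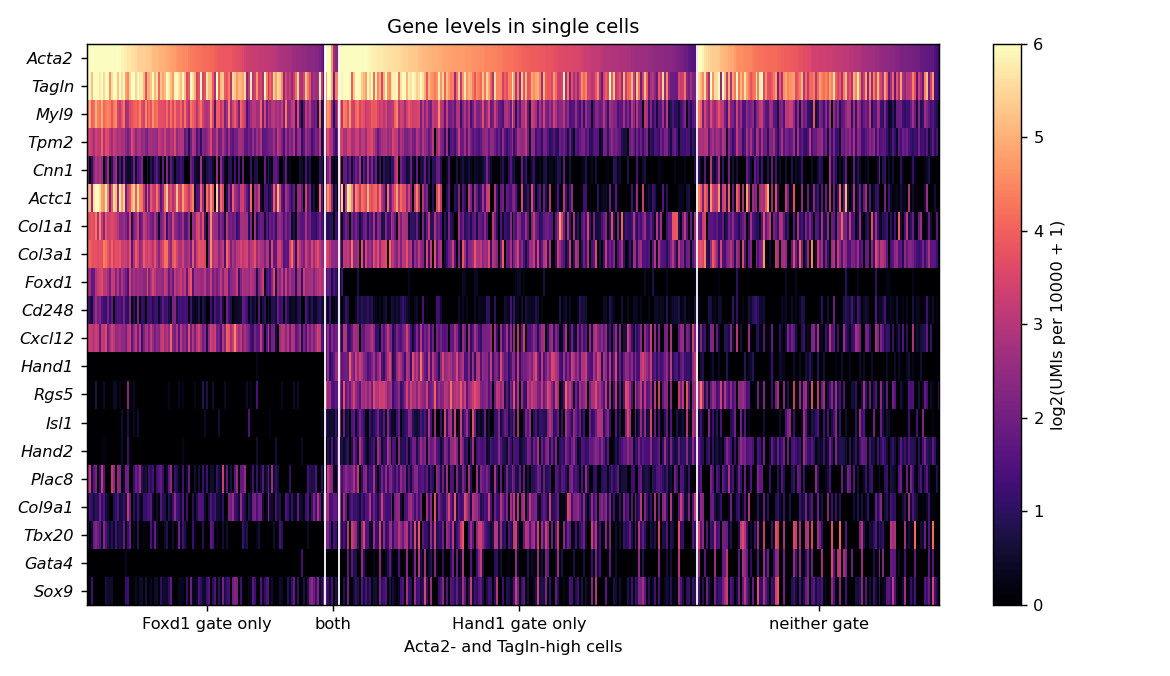
Levels of 20 genes in single cells as log2(UMIs per 10000 + 1), shown up to 6, for all 430 cells grouped by the Foxd1 and Hand1 gates and ordered by Acta2 within a group. The 120 Foxd1-only cells have little Rgs5, Isl1 or Hand2, which are high in many of the 181 Hand1-only cells; Cd248 is higher in the Foxd1-only cells, Cxcl12 is present in both, and Myl9 and Tpm2 are present in all groups; Foxd1 and Hand1 formed the groups, and Acta2 and Tagln chose the cells.

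Actc1 (chromosome 2, 114047282 to 114053548, minus strand), the cardiac alpha-actin that is also made in early smooth muscle, was at 501, 668, 386, 529, 796 and 776 CPM in libraries 1 to 6, against 11.4 CPM in the within-limits cells, 1312 CPM in the other passing cells and 10675 CPM in the cardiomyocyte gate. It was called higher than in the first and lower than in the second. Of the 430 cells, 174 (40.5%) held 10 or more Actc1 UMIs, compared with 0.371% of the within-limits cells and 0.246% of the epithelial gate. Other heart muscle transcripts were also below the cardiomyocyte gate, with Acta1 at 55.9 CPM against 739, Tnni1 at 86.3 against 2606 and Myl7 at 19.8 against 11853. The rule bars cells rich in Tnnt2 or Ttn and the gate asks for both, so these gaps are set in part by the choice of cells, and the part of heart muscle RNA in the Actc1 level was not tested.

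Cells with 10 or more Actc1 UMIs also had higher levels of contractile transcripts. In the 174 cells Cnn1 was at 174 CPM against 27.1 in the other 256, Actg2 at 43.2 against 7.82 and Myh11 at 12.2 against 0.817. Acta2 (3781 against 1118 CPM) and Tagln (4539 against 1412 CPM) chose the cells, so their levels are only a description. Median depth was about equal in both sets (31638 and 31227 UMIs). Among heart muscle genes, Acta1 was higher too (120 against 11.9 CPM) and Myl7 was close (18.6 against 20.7 CPM). Tnni1 went the other way (33.0 against 123 CPM), as did Nkx2-5 (1.35 against 14.8 CPM) and Wnt2 (0.677 against 40.0 CPM). Of the Foxd1 gate, 63.8% of cells were in the Actc1 gate, and of the Hand1 gate 31.9%, with Actc1 at 1349 CPM in Foxd1-only and 429.6 CPM in Hand1-only cells. Actc1, Acta2, Acta1 and Actg2 are close copies of each other, and a part of shared reads in their joint level was not tested. In the 256 cells under that minimum, the 23 contractile genes outside the rule summed to 6148 CPM. Cnn1 in them was close to the 27.5 CPM of the other passing cells, a group that keeps its own Actc1-rich barcodes (10.65% of it). With barcodes of 10 or more Actc1 UMIs left out of both groups, the log2 ratio of Cnn1 was 3.95, beside 1.67 with all barcodes.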

How the data were processed

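Single-cell RNA libraries (Chromium 3′ kit v3, per the labels' protocols) came from 3 vehicle and 3 STZ samples. The authors deposited 1 matrix of raw UMI counts for 32285 genes and 53362 barcodes. The submitters' processing notes name CASAVA 1.8, Cell Ranger 5.0.0, Seurat 4 and the build mm10. No source used here ties a barcode suffix to a sample, so the matrix was treated as 1 sample with 6 libraries: no group comparison, test or p-value was made.

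The barcodes were chosen by the UMI limits given in the report. UMIs were summed per group and library and written as CPM. For each gene the ratio was taken within each library (0.5 added to each count), and the median over libraries gave the call: 2-fold, and 10 CPM in either group. Named genes were those of the rule and of 25 gene lists, the 15 highest and 8 lowest ratios (50 CPM or more, 2-fold in all 6 libraries), leaving out mitochondrial, ribosomal protein and sex-linked genes, and a few named after their values were seen. The members and lists were chosen with earlier results of these data known. Intervals are exact Poisson (levels) or Clopper-Pearson (shares), at 95%. A count of 0 was limited by 3 counts. Shares were also taken after thinning cells to 10000 UMIs, which left out 8 of the 430. No doublet caller was run. The calling step was tested on simulated counts. Gene coordinates are GENCODE M21 and promoter sequences RefSeq GRCm38.p6. Cardiomyocyte, endothelial and epithelial gates were set on marker UMIs. Alternatives changed the cell limits, the comparison group, depth, scaling, the CPM minimum and the libraries used. Python 3.11.15, numpy 2.4.6, scipy 1.17.1, pandas 2.3.3 and matplotlib 3.10.9 were used.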

Additional observations from a re-analysis of the deposited data

How the results depend on the processing

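The number of cells was 430 and their share 1.20%. With Acta2 and Tagln at 5 UMIs these were 633 and 1.76%, at 20 UMIs 292 and 0.812%, and without barcodes at 10 or more Actc1 UMIs 256 and 0.800% of the barcodes kept (chosen after seeing the data). At 1000 genes and 20% mitochondrial UMIs the share was 1.05%. The summed contractile level, 8310 CPM, was 7188 and 9410 CPM at 5 and 20 UMIs, 8362 CPM at the wider quality limits, 8951 CPM with Acta2 and Tagln at 400 CPM, 8172 CPM without shared barcode sequences, 8476 CPM without barcodes above the 95th percentile of UMIs, 8386 CPM without hemoglobin-rich barcodes (chosen after seeing the data) and 6148 CPM without the Actc1 cells. These settings change which cells are counted.

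Genes called higher and lower, 332 and 334, were 653 and 179 beside the within-limits cells, 170 and 71 at a minimum of 50 CPM, and 14873 and 1542 with no minimum, where the added 0.5 sets the ratio of genes with almost no counts. Leaving out each library in turn gave 320 to 405 cells, shares of 1.11 to 1.30%, 332 to 364 genes higher, 337 to 362 lower and 8120 to 8477 CPM. The number of contractile genes called higher was 14 with depth thinned, with ratios scaled to the median gene and without hemoglobin-rich barcodes, 19 beside the within-limits cells, 12 without Actc1-rich barcodes in both groups and 8 without them among the 430 cells alone (chosen after seeing the data). Scaling shifted the median gene by 0.01 to 0.05 (log2) in 5 libraries and by 0.13 in library 3. No paired analysis was possible because the barcode suffixes carry no replicate number or group. A count of 0 over all 430 cells allows up to 0.207 CPM.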
